A study of Caenorhabditis elegans with 20 samples.

Results

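The enzymes that activate fatty acids and shorten them by beta-oxidation were examined in whole adult *Caenorhabditis elegans* on 20 Affymetrix arrays. The members were all genes whose symbol in the array annotation starts with acs-, acdh-, acox-, ech-, cpt- or hacd-, each read from its probe set with the highest mean over the 20 arrays. This gave 57 of the 17118 genes measured: 23 acs, 12 acdh, 10 ech, 6 cpt, 5 acox and 1 hacd. All 57 kept their symbol when matched by gene identifier to RefSeq, where 1 of them, *acs-23*, is listed as a pseudogene. RefSeq lists 60 genes with these prefixes. The 3 that are not members are *acdh-10*, *acox-1.3* and *acox-1.4*, and the last of these share probe set 194054_s_at, which is described separately.

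The arrays came from 4 genotypes with 5 biological replicates each, and all strains shared *glp-4*(bn2), with which animals kept warm form few germ cells. The genotypes were *daf-2*(e1370), *daf-2*(e1370) with *daf-16*(mgdf50), *daf-2*(m577) and *daf-2*(m577) with *daf-16*(mgdf50), all on this *glp-4*(bn2) background. They are called here e1370 and m577, with or without *daf-16*. Synchronised animals grew at 15 °C, were moved to 25 °C around the L4 stage and were collected as 1-day-old sterile adults, with 8 plates to a replicate. No strain with wild-type *daf-2* was analysed here, so every comparison is within animals with reduced *daf-2* function. The *daf-2* product is the worm's receptor for insulin-like peptides, and *daf-16* codes for a FOXO transcription factor that this receptor restrains. mgdf50 is a deletion of *daf-16*.

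Fatty acids enter metabolism when acyl-CoA synthetases (acs) join them to coenzyme A. Carnitine palmitoyltransferases (cpt) carry the long chains into mitochondria, where acyl-CoA dehydrogenases (acdh), enoyl-CoA hydratases (ech), hydroxyacyl-CoA dehydrogenases (hacd) and thiolases remove carbons from the chain in repeated rounds. In peroxisomes, acyl-CoA oxidases (acox) take the place of the dehydrogenases, and in this worm they also shorten the side chains of ascaroside pheromones. Much of this chemistry takes place in the intestine, the main fat store of the worm. Animals with reduced *daf-2* function are known for their long life and large fat stores, both of which depend on *daf-16*.

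Values are levels on the log2 scale from the authors' joint normalization, and a difference of 1 is a 2-fold difference. The Bacillus control probe sets, which match no worm gene, reached at most 6.29, and levels up to that value were taken as background. Of the 57 members, 44 had all 4 genotype means above it, 6 had some and 7 had none (*acdh-2*, *acdh-6*, *acs-23*, *acs-24*, *acs-25*, *cpt-4* and *ech-5*). Probe sets differ in brightness for the same amount of RNA, so no level is compared between genes. Of the 4 *daf-16* probe sets, 2 were higher with *daf-16* present (175678_at by 0.76 ± 0.19 and 181992_s_at by 0.69 ± 0.17, SE) and 2 did not pass the threshold. The sources used here do not say which of them lie in the deleted part. All 4 genotype means of 181992_s_at, 5.14 to 5.99, lie inside background, as does that of 175678_at in e1370 without *daf-16* (5.99). The differences of these probe sets are limited by background. Mean levels of 7 intestine marker genes were 9.82 ± 0.38 in e1370 and 10.77 ± 0.55 in e1370 without *daf-16*, against 10.65 ± 0.30 in m577 and 10.98 ± 0.35 in m577 without *daf-16* (SD, n = 5). Sperm marker genes were lowest on replicate 5 of e1370 without *daf-16* (7.50), replicate 3 of m577 (7.53) and replicate 4 of e1370 (8.10), with all other arrays at 9.29 or more.

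The first comparison asked which members differed between animals with and without *daf-16*, as the mean of the differences in both *daf-2* alleles. With *daf-16* present, *hacd-1*, which encodes a hydroxyacyl-CoA dehydrogenase, was 6.58-fold higher, and the acyl-CoA synthetases *acs-17*, *acs-19* and *acs-21* were 3.2-, 2.19- and 2.09-fold higher. The peroxisomal oxidase *acox-1.2* was 4.3-fold lower, the carnitine palmitoyltransferases *cpt-5* and *cpt-6* 2.44- and 2.56-fold lower and the dehydrogenase *acdh-9* 2.32-fold lower. In e1370 the means of *acox-1.2* and *cpt-5* lie inside background, which limits both folds. *acdh-6* was higher by a small amount at a level inside background. Together 5 of 57 members were higher at an adjusted p under 0.05 in limma, where 3.77% of all genes were, and 4 of 57 were lower, where 2.87% were. The median difference over the 57 members was -0.09, with a median size of 0.33, beside 0.01 and 0.14 over all 17118 genes. Before adjustment, 18 members and 2651 of all genes had p under 0.05.

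**Figure D1:**
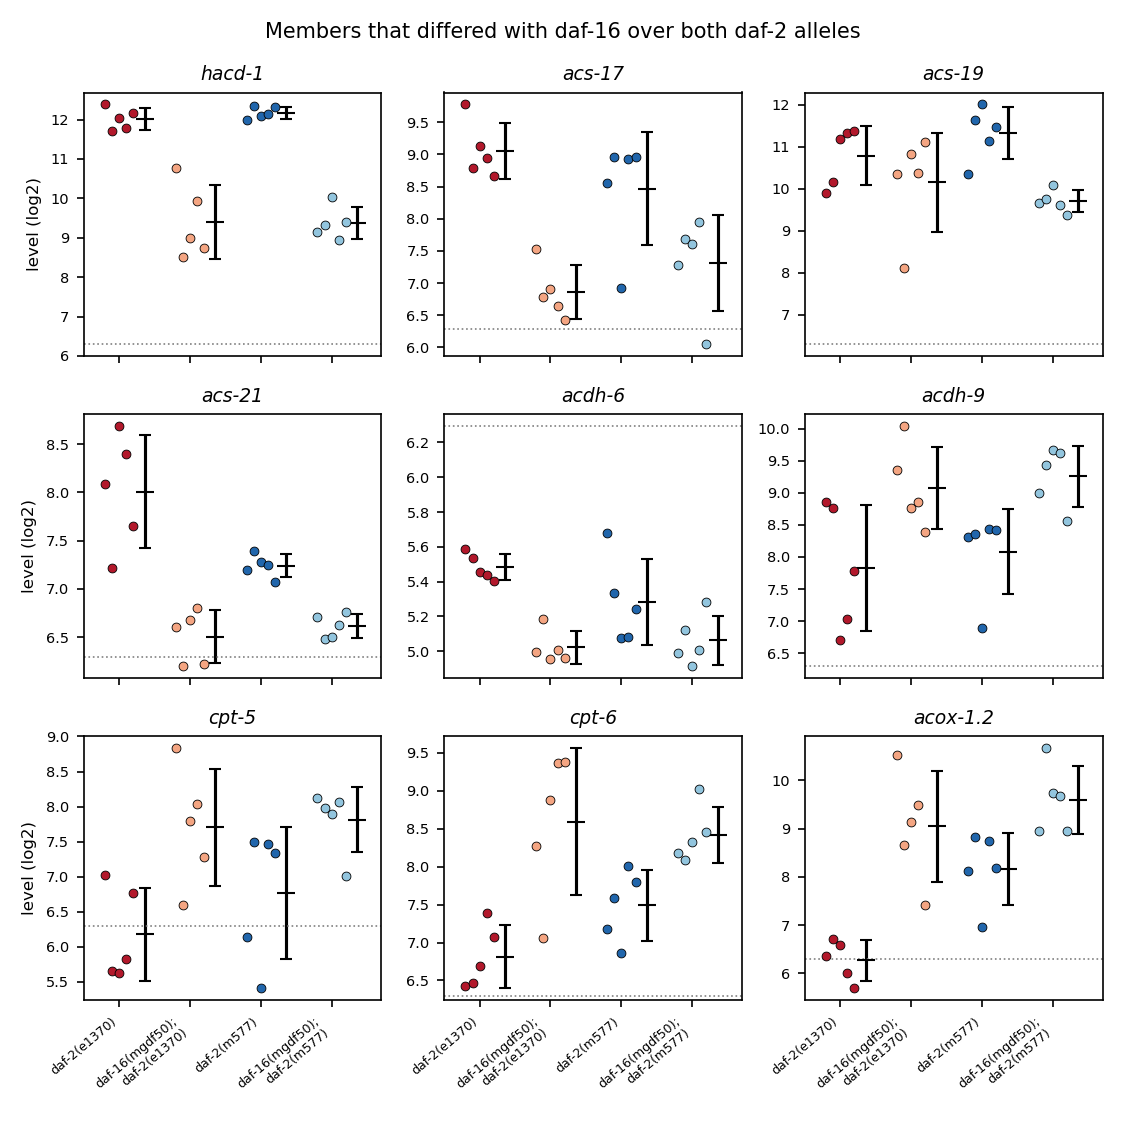
Levels (log2, vertical axis, a separate range in each panel) of the 9 members past the threshold over both alleles, by genotype on the horizontal axis; all strains also carry *glp-4*(bn2). Points are arrays (5 per genotype), bars are means with SD, and the dotted line is the highest Bacillus control value, 6.29. The 10 arrays with *daf-16* all lie above the 10 without it for *hacd-1* and *acs-21*, and *acdh-6* lies wholly below the dotted line.

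*hacd-1* differed most of the members. Its levels were 12.38, 11.72, 12.03, 11.79 and 12.17 in e1370 and 10.77, 8.52, 9.01, 9.94 and 8.74 in e1370 without *daf-16*. In m577 they were 11.98, 12.34, 12.10, 12.14 and 12.32, and in m577 without *daf-16* they were 9.15, 9.33, 10.03, 8.94 and 9.40. All arrays with *daf-16* were high and close together, those without it were lower and more spread, and the groups did not overlap in either allele. The difference was 2.72 ± 0.23 over both alleles (SE, limma adjusted p = 2.62e-07), 2.63 ± 0.32 in e1370 (adjusted p = 3.85e-05) and 2.81 ± 0.32 in m577 (adjusted p = 6.60e-05). It was the only member past the threshold in m577 taken alone. The difference between these differences was -0.18 ± 0.46 (adjusted p = 0.979), and over 31 other settings the value for both alleles ranged from 2.43 to 2.96.

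Of the 23 acyl-CoA synthetase genes, 3 were higher with *daf-16* present, none was lower and 20 did not pass the threshold (limma, 8 of the 23 with unadjusted p under 0.05). The 20 ranged in difference from -0.72 to 0.68. *acs-17* is represented by probe sets 174966_at, used here for its higher mean, and 192363_at. On the former its levels were 9.78, 8.78, 9.13, 8.94 and 8.66 in e1370 and 7.53, 6.78, 6.91, 6.64 and 6.42 in e1370 without *daf-16*. They were 8.56, 8.96, 6.93, 8.93 and 8.97 in m577 and 7.28, 7.69, 7.62, 7.95 and 6.05 in m577 without *daf-16*. The groups were apart in e1370 and overlapped in m577, where replicate 3 was low. The difference was 1.68 ± 0.28 over both alleles (adjusted p = 6.16e-04), 2.20 ± 0.39 in e1370 (adjusted p = 0.00161) and 1.15 ± 0.39 in m577 (adjusted p = 0.184).

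The other *acs-17* probe set gave 7.87, 8.65, 8.16, 8.05 and 8.35 in m577 and 6.31, 6.76, 6.73, 6.93 and 6.54 in m577 without *daf-16*. On it replicate 3 of m577 was like the rest and the groups were apart. Its difference in m577 was 1.56 ± 0.20 (adjusted p = 2.37e-04) and over both alleles 1.69 ± 0.14 (adjusted p = 2.62e-07). The probe sets therefore gave like values over both alleles and different calls in m577.

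*acs-21* had levels of 8.09, 7.21, 8.68, 8.40 and 7.66 in e1370 and 6.61, 6.20, 6.68, 6.81 and 6.23 in e1370 without *daf-16*, of which 2 lie inside background. In m577 they were 7.20, 7.40, 7.28, 7.25 and 7.07, and without *daf-16* 6.71, 6.48, 6.50, 6.62 and 6.76. The groups were apart in both alleles, with a wider gap in e1370. The difference was 1.06 ± 0.15 over both alleles (adjusted p = 8.69e-05), 1.504 ± 0.21 in e1370 (adjusted p = 1.31e-04) and 0.62 ± 0.21 in m577 (adjusted p = 0.168). The test of the gap between alleles gave 0.88 ± 0.29 (adjusted p = 0.542).

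*acs-19* encodes a homologue of acetyl-CoA synthetase, which acts on acetate. Its levels were 9.89, 10.16, 11.20, 11.33 and 11.39 in e1370 and 10.35, 8.12, 10.83, 10.37 and 11.11 in e1370 without *daf-16*, and these overlapped. They were 10.37, 11.64, 12.01, 11.13 and 11.48 in m577 and 9.66, 9.77, 10.10, 9.62 and 9.38 without *daf-16*, which did not. The difference was 1.13 ± 0.33 over both alleles (adjusted p = 0.0458), 0.64 ± 0.46 in e1370 (adjusted p = 0.909) and 1.62 ± 0.46 in m577 (adjusted p = 0.0938). The call over both alleles was near the threshold and was lost under 18 of 31 other settings, 14 of which each left out 1 array.

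*acs-2* encodes a mitochondrial acyl-CoA synthetase known to rise on fasting through the nuclear receptor NHR-49, and is named here after its values were seen. Its genotype means were 6.48 ± 0.45 in e1370, 6.47 ± 0.50 in e1370 without *daf-16*, 7.03 ± 0.86 in m577 and 6.85 ± 0.79 in m577 without *daf-16* (SD, n = 5). These lie close to background and overlap, and the difference over both alleles was 0.10 ± 0.29 (adjusted p = 0.903).

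Of the 6 carnitine palmitoyltransferase genes, 2 were lower with *daf-16* present and 4 did not pass the threshold, with differences from -0.37 to 0.02. The levels of *cpt-6* were 6.43, 6.46, 6.69, 7.39 and 7.08 in e1370 and 8.27, 7.07, 8.87, 9.36 and 9.38 in e1370 without *daf-16*. They were 7.18, 7.59, 6.86, 8.01 and 7.80 in m577 and 8.18, 8.09, 8.33, 9.02 and 8.46 without *daf-16*. The arrays with *daf-16* were lower in both alleles, the groups overlapped in e1370 through replicate 2 without *daf-16*, and they were apart in m577. The difference was -1.35 ± 0.26 over both alleles (adjusted p = 0.00222), -1.78 ± 0.36 in e1370 (adjusted p = 0.00539) and -0.93 ± 0.36 in m577 (adjusted p = 0.266).

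*cpt-5* had levels of 7.02, 5.65, 5.62, 5.82 and 6.76 in e1370, of which 3 lie inside background, and 8.83, 6.59, 7.79, 8.04 and 7.28 in e1370 without *daf-16*. It had 6.14, 7.49, 5.404, 7.46 and 7.34 in m577 and 8.12, 7.99, 7.89, 8.07 and 7.01 in m577 without *daf-16*. The groups overlapped in both alleles, and 2 of the m577 values lie inside background too. The difference was -1.29 ± 0.32 over both alleles (adjusted p = 0.0176), and neither -1.53 ± 0.45 in e1370 nor -1.05 ± 0.45 in m577 passed (adjusted p = 0.0678 and 0.323). The call over both alleles was lost under 4 of 31 other settings, and that of *acdh-9* under 3. *cpt-1* and *cpt-2*, which carry the names of the outer and inner mitochondrial enzymes and are given here after their values were seen, differed by -0.02 ± 0.29 and -0.37 ± 0.30 (adjusted p = 0.979 and 0.618).

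Of the 12 acyl-CoA dehydrogenase genes, *acdh-9* was lower with *daf-16* present, *acdh-6* was higher and 10 did not pass the threshold, with differences from -0.94 to 0.13. The levels of *acdh-9* were 8.86, 8.77, 6.70, 7.03 and 7.78 in e1370 and 9.35, 10.04, 8.76, 8.85 and 8.39 in e1370 without *daf-16*. They were 8.31, 8.35, 6.90, 8.44 and 8.42 in m577 and 9.01, 9.44, 9.67, 9.62 and 8.56 without *daf-16*. The groups overlapped in e1370 and were apart in m577, where replicate 3 was far below the other 4 arrays. The difference was -1.21 ± 0.30 over both alleles (adjusted p = 0.019) and was near this size in each allele, -1.25 ± 0.43 in e1370 and -1.17 ± 0.43 in m577 (adjusted p = 0.142 and 0.226).

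*acdh-6* had levels of 5.59, 5.54, 5.45, 5.44 and 5.41 in e1370 and 5.00, 5.19, 4.96, 5.00 and 4.96 in e1370 without *daf-16*. It had 5.68, 5.33, 5.07, 5.08 and 5.24 in m577 and 4.99, 5.12, 4.91, 5.01 and 5.28 without *daf-16*. The groups were apart in e1370 and overlapped in m577, and every value was inside background. The difference was 0.34 ± 0.08 over both alleles (adjusted p = 0.00778) and 0.46 ± 0.11 in e1370 (adjusted p = 0.0136), so its size is limited by background.

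Of the 5 acyl-CoA oxidase genes, *acox-1.2* was lower with *daf-16* present and 4 did not pass the threshold (limma, 4 of the 5 with unadjusted p under 0.05). *acox-1.2* encodes an oxidase of ascaroside side chains. Its levels were 6.36, 6.71, 6.58, 6.00 and 5.69 in e1370 and 10.53, 8.66, 9.14, 9.49 and 7.41 in e1370 without *daf-16*. They were 8.13, 8.82, 6.96, 8.75 and 8.18 in m577 and 8.95, 10.66, 9.74, 9.68 and 8.95 without *daf-16*. The groups were apart in both alleles, and e1370 with *daf-16* stood at the edge of background while the other 3 genotypes were above it. The difference was -2.10 ± 0.34 over both alleles (adjusted p = 4.70e-04), -2.78 ± 0.48 in e1370 (adjusted p = 0.00119) and -1.43 ± 0.48 in m577 (adjusted p = 0.174). The difference in e1370 is limited by background.

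The other acyl-CoA oxidases that missed the threshold were *acox-1.1* at -0.73 ± 0.24, *acox-1.5* at -0.82 ± 0.25, *acox-1.6* at -0.62 ± 0.20 and *acox-3* at 0.69 ± 0.36 over both alleles (adjusted p = 0.0831, 0.0654, 0.0852 and 0.392). *acox-1.1*, *acox-1.2*, *acox-1.3* and *acox-1.4* follow each other along chromosome I in RefSeq. The levels of *acox-1.1*, the best known oxidase of ascaroside synthesis, were 7.58, 7.59, 7.49, 7.39 and 7.38 in e1370 and 9.30, 7.67, 8.81, 9.15 and 8.03 in e1370 without *daf-16*. These groups were apart, with e1370 the least variable. The difference in e1370 was -1.11 ± 0.34 (adjusted p = 0.0777).

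Probe set 194054_s_at, which the annotation gives to both *acox-1.3* and *acox-1.4*, is not a member. Its levels were 8.03, 8.38, 7.79, 7.58 and 8.38 in e1370 and 8.88, 7.88, 8.62, 9.37 and 8.50 in e1370 without *daf-16*. They were 9.62, 10.44, 9.07, 10.06 and 10 in m577 and 8.38, 8.77, 8.56, 8.50 and 8.44 without *daf-16*. The m577 arrays with *daf-16* were above all those without it, while in e1370 the groups overlapped with lower values where *daf-16* was present. The difference was 1.31 ± 0.26 in m577 (adjusted p = 0.00979) and -0.62 ± 0.26 in e1370 (adjusted p = 0.307), and the difference between them was -1.93 ± 0.37 (adjusted p = 0.0346). That last call was lost under 20 of 30 other settings, 16 of which each left out 1 array. Its neighbour *acox-1.2* had lower levels with *daf-16* in both alleles.

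**Figure D2:**
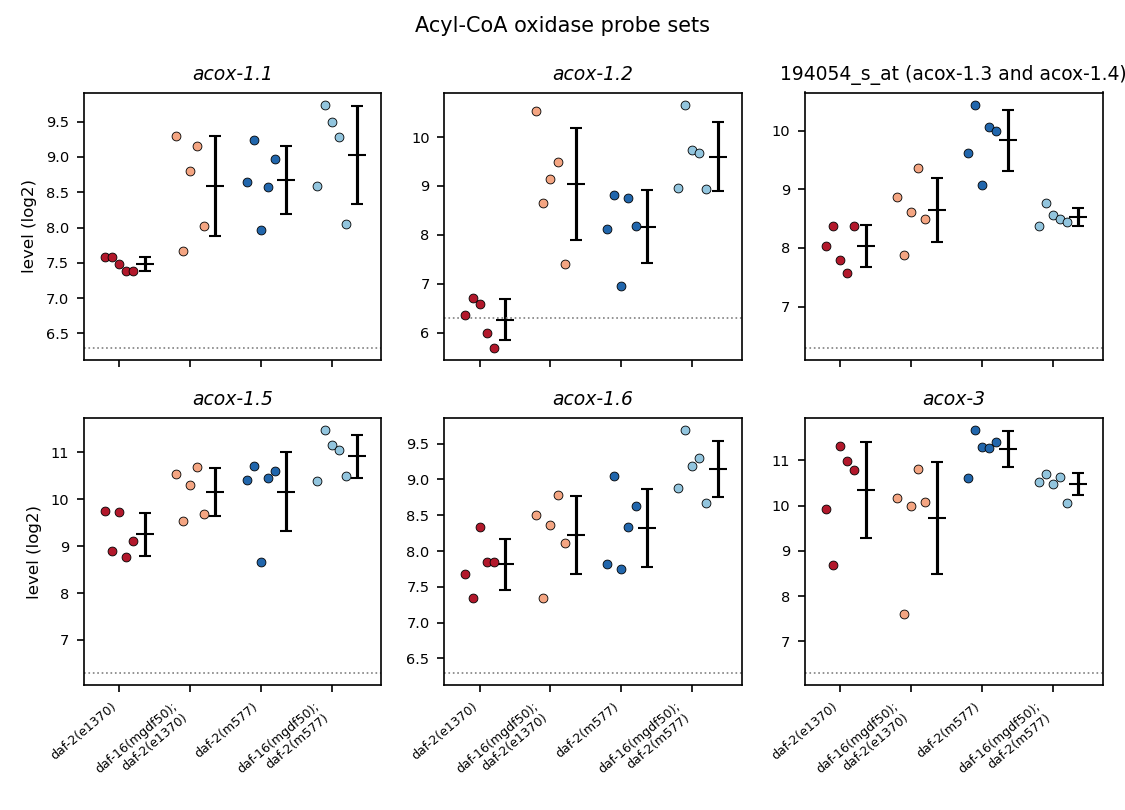
Levels (log2, vertical axis, a separate range in each panel) of the 5 acyl-CoA oxidase members and of the probe set shared by *acox-1.3* and *acox-1.4*, by genotype on the horizontal axis; all strains also carry *glp-4*(bn2). Points are arrays (5 per genotype), bars are means with SD, and the dotted line is the highest Bacillus control value, 6.29. The shared probe set is highest in m577 with *daf-16*, at 9.07 to 10.44, where *acox-1.2* lies below its level without *daf-16*.

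No enoyl-CoA hydratase gene of the 10 passed in the 6 comparisons (limma, 1 with unadjusted p under 0.05 over both alleles). The largest differences over both alleles were those of *ech-7* and *ech-3*. *ech-7* had levels of 11.29, 11.98, 9.53, 9.16 and 9.47 in e1370 and 9.26, 10.64, 8.30, 8.11 and 8.21 in e1370 without *daf-16*. It had 10.80, 10.34, 9.61, 9.67 and 10.27 in m577 and 9.49, 9.88, 9.41, 8.74 and 9.10 without *daf-16*. The means were higher with *daf-16* in both alleles and the groups overlapped in both, with replicates 1 and 2 of e1370 and replicate 2 of e1370 without *daf-16* above the rest of their groups. Its difference was 1.099 ± 0.38 (adjusted p = 0.111), and that of *ech-3* was 0.47 ± 0.26 (adjusted p = 0.429). *ech-7* passed the threshold under 4 of 31 other settings, among them without replicate 2 of e1370 lacking *daf-16*.

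**Figure D3:**
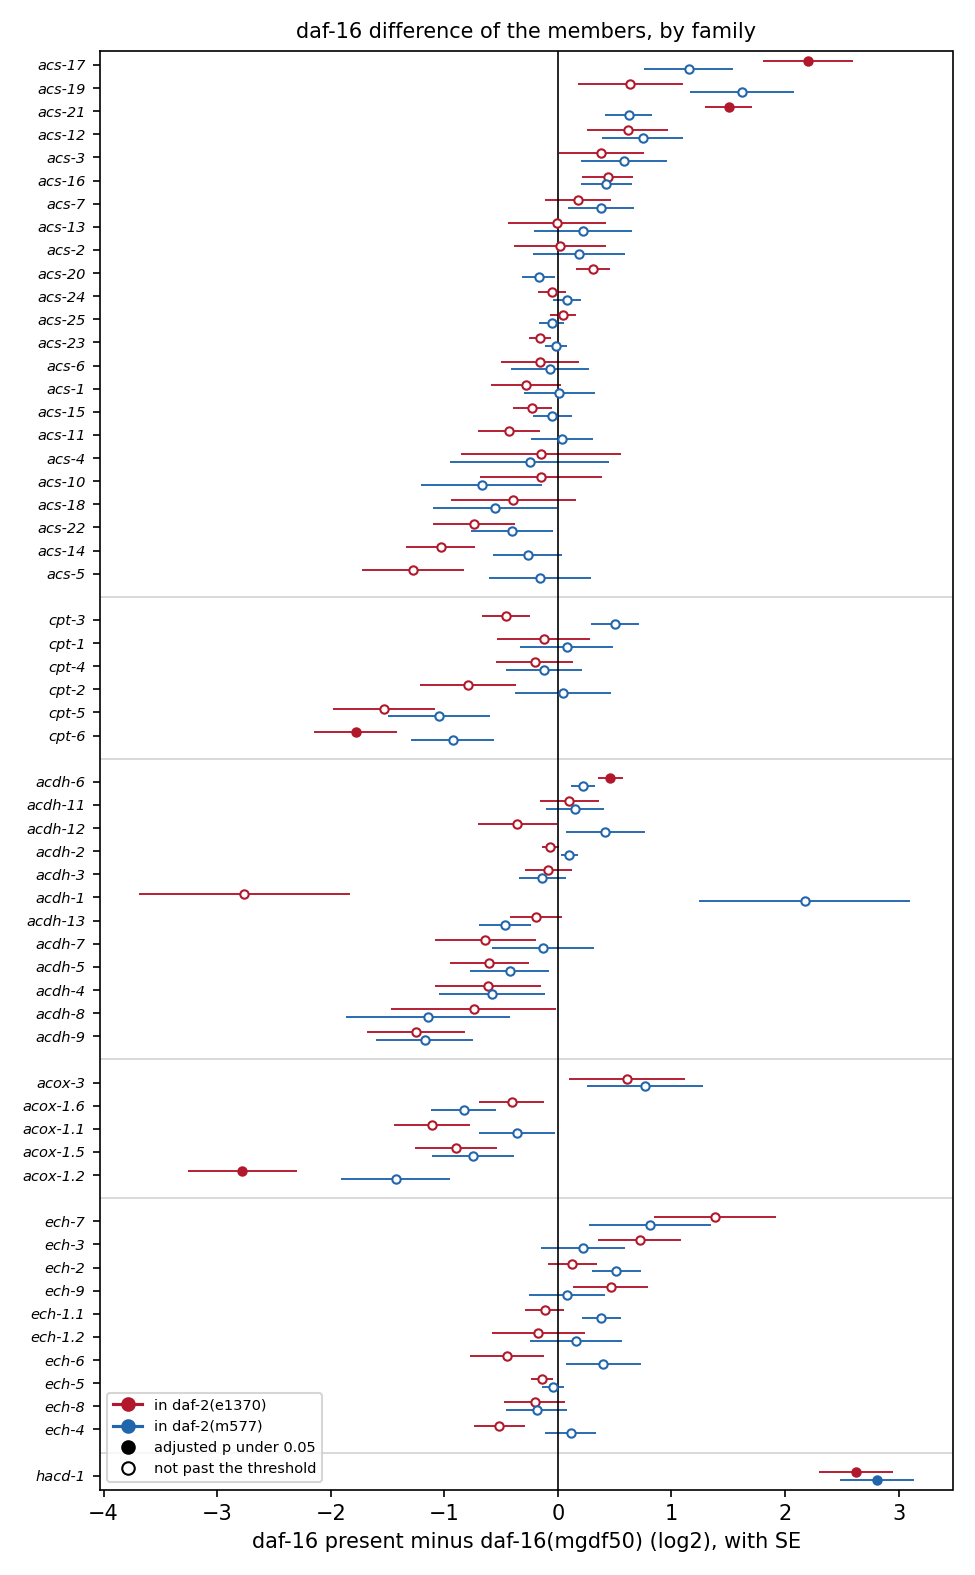
The *daf-16* difference (log2, horizontal axis, *daf-16* present minus *daf-16*(mgdf50)) of all 57 members in e1370 (red) and m577 (blue), by family and in order of the mean over both alleles. Points are differences with SE (5 arrays per genotype) and filled points had an adjusted p under 0.05. *hacd-1* is filled in both alleles, 5 other members are filled in e1370 only, which does not show a difference between alleles, and *acdh-1* lies far to opposite sides at -2.76 and 2.17.

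In e1370 alone, 4 of 57 members were higher with *daf-16* (*hacd-1*, *acs-17*, *acs-21* and *acdh-6*), where 2.66% of all genes were, and 2 were lower (*acox-1.2* and *cpt-6*), where 2.16% were. In m577 alone, *hacd-1* was higher, where 1.21% of all genes were, and no member was lower, where 0.672% were. Before adjustment, 13 of 57 members and 2048 of 17118 genes had p under 0.05 in m577 (limma, in either direction). By the overlap of arrays alone, 6 of 57 members had groups apart in e1370, where 4.18% of all genes did, and 7 of 57 in m577, where 6.56% did. *hacd-1*, *acs-21* and *acox-1.2* were apart in both alleles and the same way. The difference between alleles of the *daf-16* difference passed the threshold for 0 of 57 members, where 0.193% of all genes passed. In that comparison 4 of 57 members had unadjusted p under 0.05 in limma, beside 925 of 17118 genes. The 4 were *acdh-1*, *acs-20*, *acs-21* and *cpt-3*.

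Intestine markers differed with *daf-16* over both alleles, and none of them passed in the difference between alleles of the *daf-16* difference. Their mean level was 9.19 to 10.14 over the arrays of e1370 and 9.93 to 11.25 in e1370 without *daf-16*, and 10.25 to 10.94 in m577 against 10.55 to 11.39 without *daf-16*. Of 7 measured, *pept-1*, *act-5*, *vha-6* and *asp-1* were lower with *daf-16* over both alleles, at -2.95, -1.48, -0.94 and -0.81. Only 3 of the 4 genotype means of *pept-1* were above background, which limits its difference. *ges-1* was higher by 1.88, and *elt-2* and *cpr-6* did not pass, at -0.10 and -0.07. These markers did not move the same way. A change in intestinal RNA as a whole and changes in single marker genes cannot be told apart in whole animals. The part of either in the members' differences was not tested. The level of control transcripts at their 3' end minus that at their 5' end, a sign of RNA integrity, was 1.33 ± 0.16 in m577 and 1.87 ± 0.25 in m577 without *daf-16* (SD, n = 5), beside 1.37 ± 0.19 and 1.47 ± 0.11 in e1370. With this difference as a covariate, 5 members passed over both alleles in place of 9, namely *hacd-1*, *acs-17*, *acs-21*, *acox-1.2* and *cpt-6*, where 3.15% of all genes passed in place of 6.64%.

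The alleles were then compared, as e1370 minus m577, with *daf-16* present. Here 2 of 57 members were lower in e1370, where 0.631% of all genes were, and none was higher, where 0.794% were. The 2 were *acdh-1*, lower by a factor of 21.5, and *cpt-3*, lower by a factor of 2.09. The difference was below 0 for 46 of 57 members, with a median of -0.36, beside 9748 of 17118 genes and a median of -0.04. All 5 acox and all 6 cpt members were below 0. All 7 measured intestine markers were below 0 too, with a median of -0.64. Of these, *vha-6* and *asp-1* passed the threshold, at -1.41 and -1.28. *act-5*, *pept-1*, *cpr-6*, *ges-1* and *elt-2* did not pass, at -1.49, -0.64, -0.51, -0.25 and -0.23. The part of intestinal RNA in these values was not tested. Without *daf-16* no member passed the threshold and 0% of all genes did. Unadjusted limma p was under 0.05 for 3 of 57 members (*acox-1.5*, *acox-1.6* and *ech-2*), beside 572 of 17118 genes. There 42 of 57 members were below 0, among them all 5 acox, 19 of 23 acs and 3 of 6 cpt, with a median of -0.12, beside 8937 of 17118 genes and a median of -0.01. The gap between these comparisons is, for each member, the difference between alleles of the *daf-16* difference, which passed the threshold for 0 of 57. These comparisons share their arrays with those above.

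*acdh-1* encodes a dehydrogenase of the propionate shunt, a route that breaks down propionate when vitamin B12 is scarce, and it is widely used as a reporter of the vitamin in the bacterial diet. Its levels were 5.90, 5.68, 5.60, 5.81 and 8.57 in e1370 and 11.08, 7.89, 8.51, 10.23 and 7.67 in e1370 without *daf-16*. They were 11.22, 11.98, 6.67, 11.68 and 12.13 in m577 and 8.54, 8.76, 9.04, 7.39 and 9.09 in m577 without *daf-16*. In e1370, 4 of 5 arrays were inside background and replicate 5 was far above them, while in m577, 4 of 5 arrays were at 11.22 or more and replicate 3 was far below. The groups of the alleles overlapped through these arrays. The difference between alleles was -4.42 ± 0.93 with *daf-16* (adjusted p = 0.0231), a size limited by background in e1370, and 0.51 ± 0.93 without it (adjusted p = 1). The call with *daf-16* was lost under 9 of 32 other settings.

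The *daf-16* difference of *acdh-1* was -2.76 ± 0.93 in e1370 (adjusted p = 0.129) and 2.17 ± 0.93 in m577 (adjusted p = 0.318). The difference between these was -4.93 ± 1.31 (adjusted p = 0.274), and their mean was -0.29 ± 0.66 (adjusted p = 0.875). Replicate 3 of m577 also had the lowest sperm marker level of its genotype (7.53, against 10.22 to 10.78) and the highest level of oocyte and germ cell markers (11.28, against 8.19 to 9.41). This array is singled out after its *acdh-1* level was seen. Without it, the *acdh-1* difference was -2.76 ± 0.65 in e1370 (adjusted p = 0.017), 3.19 ± 0.69 in m577 (adjusted p = 0.0227) and -5.95 ± 0.95 between them (adjusted p = 0.00923). Without replicate 5 of e1370, the high array of that genotype, none of the 3 passed, at -3.33 ± 0.93, 2.17 ± 0.87 and -5.50 ± 1.27 (adjusted p = 0.0509, 0.284 and 0.0983). As on all 20 arrays, the difference between alleles missed the threshold in 27 of 31 other settings, and that within each allele in 28 of 32. Without replicate 3 of m577, 6 members were lower in e1370 than in m577 with *daf-16* present: *acdh-1*, *acox-1.1*, *acox-1.2*, *acox-1.5*, *cpt-3* and *ech-6*. In the same fit 1.38% of all genes were lower, in place of 0.631%.

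*cpt-3* had levels of 6.58, 7.24, 7.15, 6.72 and 6.44 in e1370 and 8.66, 7.90, 7.87, 7.52 and 7.49 in m577. All 5 arrays of e1370 were below those of m577. Without *daf-16* the levels were 7.15, 7.71, 7.26, 7.39 and 6.91 in e1370 and 7.08, 7.33, 7.62, 7.48 and 7.42 in m577, and these overlapped. The difference between alleles was -1.06 ± 0.21 with *daf-16* (adjusted p = 0.0184) and -0.10 ± 0.21 without it (adjusted p = 1). Without replicate 1 of e1370, neither *acdh-1* nor *cpt-3* passed the threshold. *ech-1.1*, which encodes an alpha subunit of the trifunctional protein, has 3 probe sets. Between alleles with *daf-16*, the one used gave -0.55 ± 0.17 (adjusted p = 0.111). Probe set 173279_s_at gave -0.88 ± 0.19 (adjusted p = 0.0294) and 173278_at gave -0.11 ± 0.07 (adjusted p = 0.495). The e1370 means of all 3 probe sets lie inside background, which limits these differences.

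The genes that act beside *acdh-1* in propionate breakdown are named after their values were seen. Of 13 measured genes of propionate and branched-chain amino acid breakdown, *mce-1* was higher with *daf-16* over both alleles and 12 did not pass. *mce-1* encodes methylmalonyl-CoA epimerase, of the route that needs vitamin B12, and its levels were 10.53, 10.47, 10.04, 9.93 and 10.11 in e1370 and 8.75, 9.51, 8.36, 8.72 and 9.36 in e1370 without *daf-16*. They were 9.18, 10.20, 9.37, 10.03 and 9.74 in m577 and 8.36, 8.10, 8.45, 8.36 and 8.38 without *daf-16*. The groups were apart in both alleles, and the difference was 1.33 ± 0.15 (adjusted p = 1.37e-05).

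Of the shunt enzymes downstream of *acdh-1*, *hphd-1* had levels of 9.26, 9.38, 8.57, 8.39 and 8.88 in e1370 and 11.05, 11.71, 8.62, 11.55 and 12 in m577. As for *acdh-1*, replicate 3 was the lowest m577 array, and its value lay within the e1370 range. The difference between alleles with *daf-16* was -2.09 ± 0.59 for *hphd-1* (adjusted p = 0.0828), -0.87 ± 0.31 for *hach-1*, -0.93 ± 0.33 for the member *ech-6* and -0.46 ± 0.30 for *alh-8* (adjusted p = 0.171, 0.169 and 0.495). For *nhr-68*, which encodes a nuclear receptor that controls the shunt, it was -1.21 ± 0.44 (adjusted p = 0.192). None of these 5 passed the threshold on all 20 arrays.

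**Figure D4:**
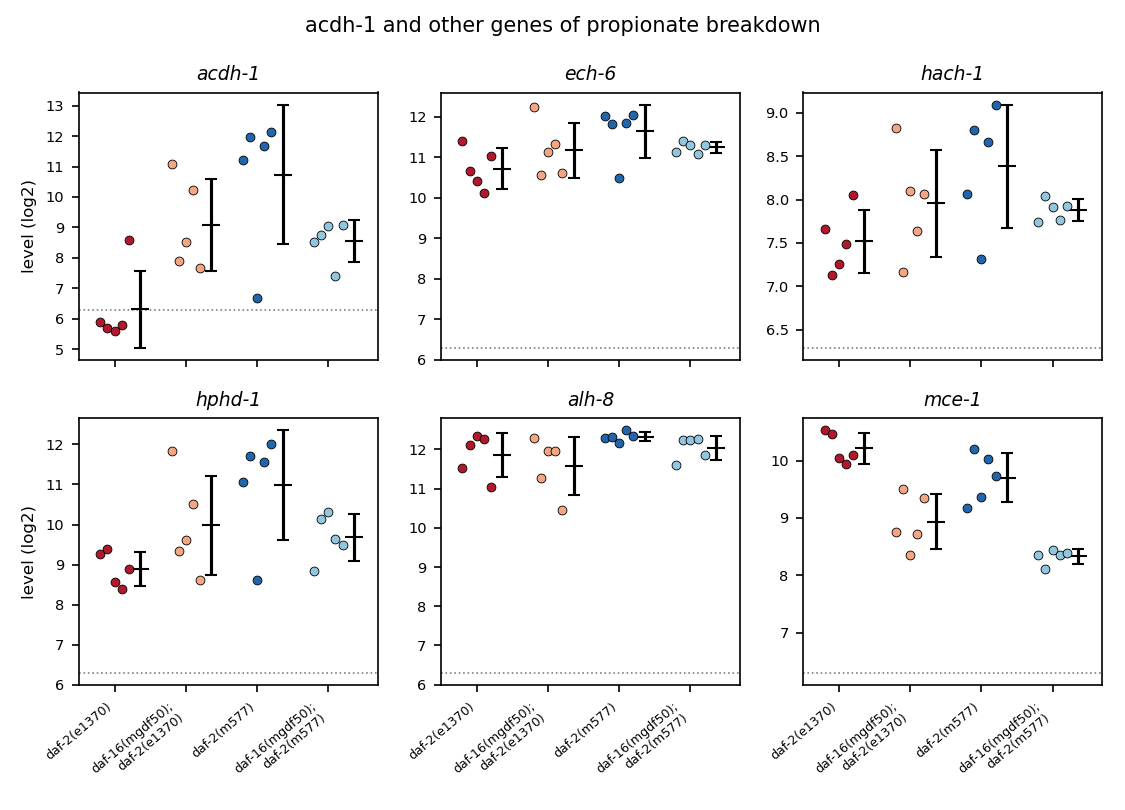
Levels (log2, vertical axis, a separate range in each panel) of *acdh-1*, *ech-6* and 4 further genes of propionate breakdown, by genotype on the horizontal axis; all strains also carry *glp-4*(bn2). Points are arrays (5 per genotype), bars are means with SD, and the dotted line is the highest Bacillus control value, 6.29. In m577 with *daf-16*, replicate 3 is the lowest array for *acdh-1*, *ech-6*, *hach-1*, *hphd-1* and *alh-8* but not for *mce-1*.

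Partners of the members were taken from further lists of genes. Among 6 measured genes of peroxisomal beta-oxidation outside the member families, 1 was higher with *daf-16* over both alleles and none was lower: *pmp-5*, a peroxisomal ABC transporter, at 1.36 ± 0.27 (adjusted p = 0.00316). *daf-22*, the thiolase of ascaroside synthesis, differed by -0.46 ± 0.18 (adjusted p = 0.19). Of 4 measured peroxisomal ABC transporter genes, *pmp-1* was lower, at -1.18 ± 0.18 (adjusted p = 2.35e-04), beside the higher *pmp-5*. None of 9 mitochondrial thiolases and partners and none of 11 peroxisome biogenesis genes passed over both alleles, and *prx-1* of the latter was lower in e1370 alone at -0.49 ± 0.11 (adjusted p = 0.00977).

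Of 6 measured acyl-CoA binding protein genes, *maa-1* was higher at 0.92 ± 0.24 and *acbp-3* lower at -1.07 ± 0.28 (adjusted p = 0.0261 and 0.0286). Of 5 genes of carnitine synthesis and carriers, *gbh-1*, which encodes a hydroxylase of carnitine synthesis, was lower at -1.18 ± 0.23 (adjusted p = 0.00261). Of 16 regulators of fatty acid oxidation, the nuclear receptor *nhr-79* was lower at -0.53 ± 0.09 (adjusted p = 0.00119), and *nhr-49* differed by 0.03 ± 0.15 (adjusted p = 0.952). Of 20 measured genes of fatty acid synthesis, 3 were higher and 1 lower. The desaturases *fat-5* and *fat-6* and the elongase *elo-2* were higher, at 1.79 ± 0.29, 0.42 ± 0.06 and 0.80 ± 0.17, and the desaturase *fat-7* was lower at -0.93 ± 0.15 (adjusted p = 5.46e-04, 1.79e-04, 0.00531 and 5.36e-04). *fat-7* was the only listed gene, markers aside, whose *daf-16* difference differed between alleles, by -1.91 ± 0.30 (adjusted p = 0.00671). It was lower in e1370 alone, at -1.88 ± 0.21, beside 0.03 ± 0.21 in m577 (adjusted p = 1.52e-05 and 0.963).

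Among themselves the members did not move as a block. Of the 9 that passed over both alleles, 3 are acyl-CoA synthetases and rose, 2 are carnitine palmitoyltransferases and fell, and the chain-shortening enzymes split, with *hacd-1* and *acdh-6* higher and *acdh-9* and *acox-1.2* lower. Of these, *acdh-6* lies wholly inside background, and the call of *acs-19* was lost under 18 of 31 other settings. Without replicate 2 of e1370 lacking *daf-16*, which had the lowest intestine and oocyte marker levels of its genotype (9.93 and 7.71), 15 members passed over both alleles in place of 9 and 14 in e1370 in place of 6. Of all genes, 8.13% and 6% passed in that fit, in place of 6.64% and 4.81%.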

How the data were processed

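Per the labels, total RNA of whole adults was hybridised to Affymetrix whole-genome arrays, scanner images were converted in Microarray Suite 5.0, and the authors normalized all 20 arrays together by the Robust Multi-chip Average in the Affymetrix package 1.4.14 of R. The log2 scale of the deposited values was read from their range. This method evens out total RNA between arrays. The members and gene lists were chosen with earlier results of these data known. A mean per genotype was fitted to all 22548 probe sets (77 controls left out) with limma 3.58.1 in R 4.3.3, with no covariates, giving 6 comparisons. Differences are *daf-16* present minus mgdf50, or e1370 minus m577, with SE. Adjusted p-values are limma's, 2-sided, by Benjamini-Hochberg over all probe sets of a comparison, and the threshold was 0.05. Shares of all genes use 1 probe set for each of 17118 genes. Of the probe sets, 20766 had 1 symbol, 887 several and 895 none. Background came from 15 Bacillus controls (median 4.57, highest mean of a control 5.19, highest single value 6.29), with no detection calls. Replicates are biological per the labels, and their number limits precision.

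Every member past the threshold in any comparison is named, as are the 2 largest of a family where none passed, and up to 4 called genes of a list. RefSeq (WBcel235) was used only for names and gene order, and the sources used here do not give the array design's build. The model was tested on simulated data. Figures used matplotlib 3.10.9. Alternatives were centring, cyclic loess, a filter on dim probe sets, an intensity trend, array weights, only the genotypes compared, all probe sets of a gene, replicate blocks, leaving out arrays, and covariates for RNA integrity and germ cell content. Same-numbered replicates did not deviate together in every pair, so the numbers were not taken as pairing.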

Additional observations from a re-analysis of the deposited data

Results flagged for a closer look

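Of 52 genotype groups looked at for 13 named members, 8 held an array far from the other 4. Chance flags about 1 in 20 independent groups. These groups share the same 20 arrays and their members were named by their differences, so no excess over chance is read from the count. Replicate 3 of m577 was low for *acdh-1* (6.67, others 11.22 to 12.13), *acdh-9* (6.90, others 8.31 to 8.44) and *acs-17* (6.93, others 8.56 to 8.97). Replicate 2 of e1370 without *daf-16* was low for *acs-19* (8.12, others 10.35 to 11.11) and high for *ech-3* (9.52, others 7.47 to 7.94) and *acdh-6* (5.19, others 4.96 to 5.00, all inside background). Replicate 5 of e1370 was high for *acdh-1* (8.57, others 5.60 to 5.90), and replicate 5 of m577 without *daf-16* was low for *cpt-5* (7.01, others 7.89 to 8.12). Probe set 194054_s_at, shared by *acox-1.3* and *acox-1.4*, differed between the alleles in its *daf-16* difference by -1.93 in the limma test of that difference (adjusted p = 0.0346), and 20 of 30 other settings did not keep this call.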

How the results depend on the processing

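Over 31 other settings, *hacd-1*, *acs-17*, *acs-21* and *cpt-6* stayed past the threshold over both alleles in all, *acox-1.2* and *acdh-6* in 30, *acdh-9* in 28, *cpt-5* in 27 and *acs-19* in 13. Between alleles with *daf-16*, *acdh-1* stayed past in 23 of 32 and *cpt-3* in 28 of 32. In what follows, counts are of members past the threshold, with 9 over both alleles, 6 in e1370, 1 in m577, 0 between alleles of the *daf-16* difference, 2 between alleles with *daf-16* and 0 without it. Unless a share of all genes is given above for the same fit, the counts do not show whether calls changed over the whole array. They are not read as results about the members. Array quality weights gave 22 over both alleles, 15 in e1370, 21 in m577, 9 between alleles of the *daf-16* difference and 19 between alleles with *daf-16*. In m577, cyclic loess gave 2, all probe sets of a gene 2, only the genotypes compared 4, leaving out the 3 arrays low in sperm genes 3 and germ cell covariates 3. The last of these gave 1 and 7 between alleles, for the *daf-16* difference and with *daf-16*, and leaving out the 3 arrays gave 1 for the former. The covariate for the 3' minus 5' difference gave 5 over both alleles. With the replicate block, title number, 10 passed over both alleles, and with the number in the alternative sample names as the block 6 passed, 5 of them shared, and 1 between alleles with *daf-16*. Leaving out single arrays gave 8 to 15 over both alleles, 6 to 14 in e1370, 1 to 3 in m577, 0 to 1 between alleles of the *daf-16* difference and 0 to 6 between alleles with *daf-16*. The uncalled mean *daf-16* difference of *acdh-1*, -0.29, ranged from -0.58 to 0.21 without single arrays, turning to 0.21 without m577 replicate 3, to 0.10 without the 3 arrays and to 0.70 with germ cell covariates. The causes were not tested. Members with levels inside background have differences limited by it.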
